A study of Mus musculus with 6 samples.

Results

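The ubiquitin-specific proteases were examined in cell fractions of prepubertal mouse testis. They were taken as all genes whose single platform symbol is Usp followed by a number, with or without further letters and digits, and each gene was represented by its brightest probe set on average. The rule gave 50 of the 18193 genes measured, with 126 probe sets. A pair of these symbols does not name a gene of the protease family: Usp6nl encodes a protein that acts on Rab GTPases, and Usp46os2 is a long non-coding RNA from the opposite strand at Usp46. The remaining 48 genes are called members here. They include Usp39, Usp53 and Usp54, grouped below for lacking or unusual catalytic residues, so not every member need be an active protease.

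RNA came from Thy1-positive cells and from Thy1-negative cells of the testis, which had been parted with magnetic beads against the surface glycoprotein Thy1. Each fraction had 3 arrays from independent donor preparations, named P1 to P3 (Thy1-positive) and N1 to N3 (Thy1-negative). Per the labels, germ cell transplantation found spermatogonial stem cells enriched in the Thy1-positive cells, and each fraction is an enriched mixture of cell types and not a pure population. The sources used here give neither strain, exact age nor treatment, and no mutant allele is named. In such bulk samples, fewer cells of a type and less RNA per cell cannot be told apart.

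Ubiquitin is a small protein that is joined to other proteins and marks them for breakdown, trafficking or signalling. Deubiquitinases remove it, and the ubiquitin-specific proteases, which cut with an active-site cysteine, are the most numerous family of them in mammals. In the testis, germ cells are known to express some family members that other tissues hardly use, such as the X-linked Usp26, while most members are expressed broadly and act on histones, DNA repair factors, receptors or the proteasome.

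All values are log2(intensity + 1) unless stated, and a difference is Thy1-positive minus Thy1-negative. Adjusted p-values come from limma with Benjamini-Hochberg adjustment over the 18193 genes, a gene is called at an adjusted p below 0.05, and n is 3 arrays per fraction throughout. SD describes the 3 arrays within a fraction, and SE is taken from limma. Signals of separate probe sets cannot be ranked against each other.

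The fractions carried the markers of the cells they are named for, together with those of others. Thy1 averaged 6.20 ± 0.27 in Thy1-positive cells against 2.48 ± 0.23 in Thy1-negative cells. Of markers of undifferentiated spermatogonia, 11 of 12 were higher in Thy1-positive cells. All 12 macrophage markers were higher there too, with array means of 10.0 to 10.5 in Thy1-positive against 3.45 to 3.60 in Thy1-negative cells. T lymphocyte markers were higher for 3 of 5, with array means of 5.29 to 5.36 in Thy1-positive against 2.95 to 3.15 in Thy1-negative cells. Of 13 Sertoli cell markers, 12 were lower in Thy1-positive cells, with array means of 6.25 to 7.82 against 10.4 to 11.0 in Thy1-negative cells. Peritubular myoid cell markers were lower for 4 of 6, with array means of 5.75 to 6.09 in Thy1-positive against 7.62 to 8.46 in Thy1-negative cells. N2 stood apart from the other Thy1-negative arrays. Its mean over 13 germ cell markers was 10.73, while N1 had 8.95 and N3 had 9.51. N2 also had the brightest signal of the 6 arrays for the 18S rRNA control at the 5' end, a linear intensity of 29178. That control was bright on N3 too, at 12545, and was 336 on N1.

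The family as a whole split in both directions. Of the 48 members, 18 were called higher in Thy1-positive cells and 12 lower, and 18 were not called. Over all genes tested, 33.0% were called, 18.5% higher and 14.4% lower. Members were brighter than most genes, and all 30 called members lay above the median signal. Among all genes above that signal 50.1% were called, 27.7% higher and 22.4% lower. Of the 45 symbols above it, 68.9% were called, 40.0% higher and 28.9% lower. The median difference of the members was 0.29, with a range of -2.94 to 2.98, and that of all genes was 0.01. For 36 members the values of the fractions were fully apart, as they were for 51.4% of all genes. Above the median signal they were apart for 7737 of 11255 genes and for 36 of the 45 symbols found there. Centring each array on its median moved the median of all genes to 0.13, and then 27 of the 50 symbols were higher and 11 lower, against 18 and 13 without centring. The counts varied with single arrays: leaving out P1, P3 or N3 gave 8, 8 and 9 higher symbols and 7 lower ones each time, and leaving out N2 gave 23 higher and 12 lower. Calls over all genes are not given for the centred fit or these fits. A shift of the family is thus not told apart from a shift of all genes. The part of the macrophages and T lymphocytes in the differences of the higher members was not tested.

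**Figure D1:**
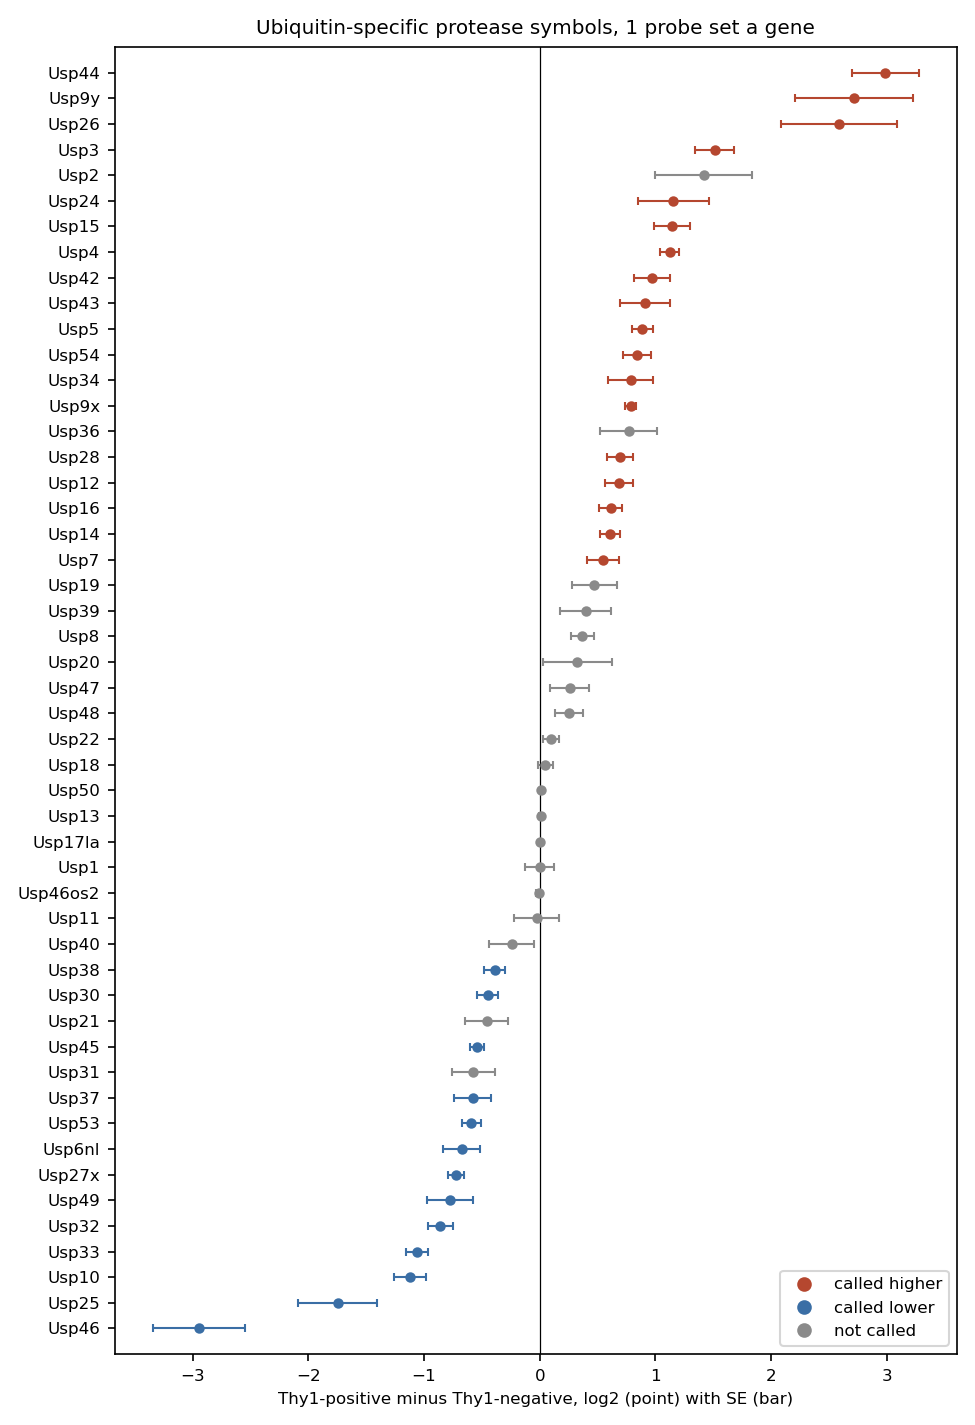
Thy1-positive minus Thy1-negative difference on the log2 scale for the 50 symbols, as points with bars for the SE of limma, with genes called higher in red, lower in blue and not called in grey. Usp44, Usp9y and Usp26 stand at the top between 2.59 and 2.98, Usp46 at the bottom at -2.94, and most others lie within about 1 of zero.

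The members that are known for expression in germ cells or enrichment in testis were Usp26, Usp9y, Usp44, Usp2, Usp42 and Usp50. Of these 6, 4 were higher in Thy1-positive cells and 0 lower by limma; 5 had an unadjusted p below 0.05. Their median difference was 2.00, while that of the other 42 members was 0.17, with 14 higher and 12 lower. Their mean level was 8.32, 8.01 and 8.23 on P1, P2 and P3 against 5.999, 6.92 and 6.28 on N1, N2 and N3. The other 42 members averaged 8.87 ± 0.07 in Thy1-positive cells against 8.82 ± 0.05 in Thy1-negative cells. Over all genes, 18.5% were called higher and 14.4% lower. The groups were written with earlier results of these data known, so their contrast is a description.

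Usp26, an X-linked protease of germ cells, measured 9.89, 9.43 and 9.93 on P1, P2 and P3 against 6.51, 8.18 and 6.79 on N1, N2 and N3. The fractions did not overlap, and N2 lay closest to the Thy1-positive arrays. Usp26 was 6.02-fold higher in Thy1-positive cells (difference 2.59, SE 0.50, adjusted p = 0.0206). The call was lost without P1 (2.52), P3 (2.50), N1 (2.26) or N3 (2.40), and without N2 the difference was 3.10.

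Usp9y, the Y-linked relative of Usp9x, measured 9.20, 8.91 and 9.002 on P1, P2 and P3 against 5.49, 7.35 and 6.13 on N1, N2 and N3. Its arrays lay in the same order within the Thy1-negative fraction as those of Usp26, with N2 highest and N1 lowest. The difference was 2.71 (SE 0.51, adjusted p = 0.0192), or 6.56-fold, and was not called without P1 (2.63), P2 (2.78), P3 (2.73) or N3 (2.62). The germ cell markers kept the same order, with means of 11.54, 11.61 and 11.54 on P1, P2 and P3 against 8.95, 10.73 and 9.51 on N1, N2 and N3. Of these 13 markers, 5 were called higher and 0 lower by limma. The part of the germ cell content of the fractions in the differences of Usp26 and Usp9y was not tested.

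Usp44, a histone H2B deubiquitinase that is also known for its part in the spindle checkpoint, did not follow that order. It measured 7.27, 6.22 and 6.91 on P1, P2 and P3 against 3.78, 3.76 and 3.91 on N1, N2 and N3, so N2 was no higher than the other Thy1-negative arrays. Usp44 had the highest difference of the family, 2.98 (SE 0.29, adjusted p = 0.00462), or 7.91-fold, and it was called in each of the 6 fits that left out 1 array. Its Thy1-negative mean of 3.82 lay below the median signal of the arrays, which was 4.06 to 4.21, so the fold rests on a dim value.

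**Figure D2:**
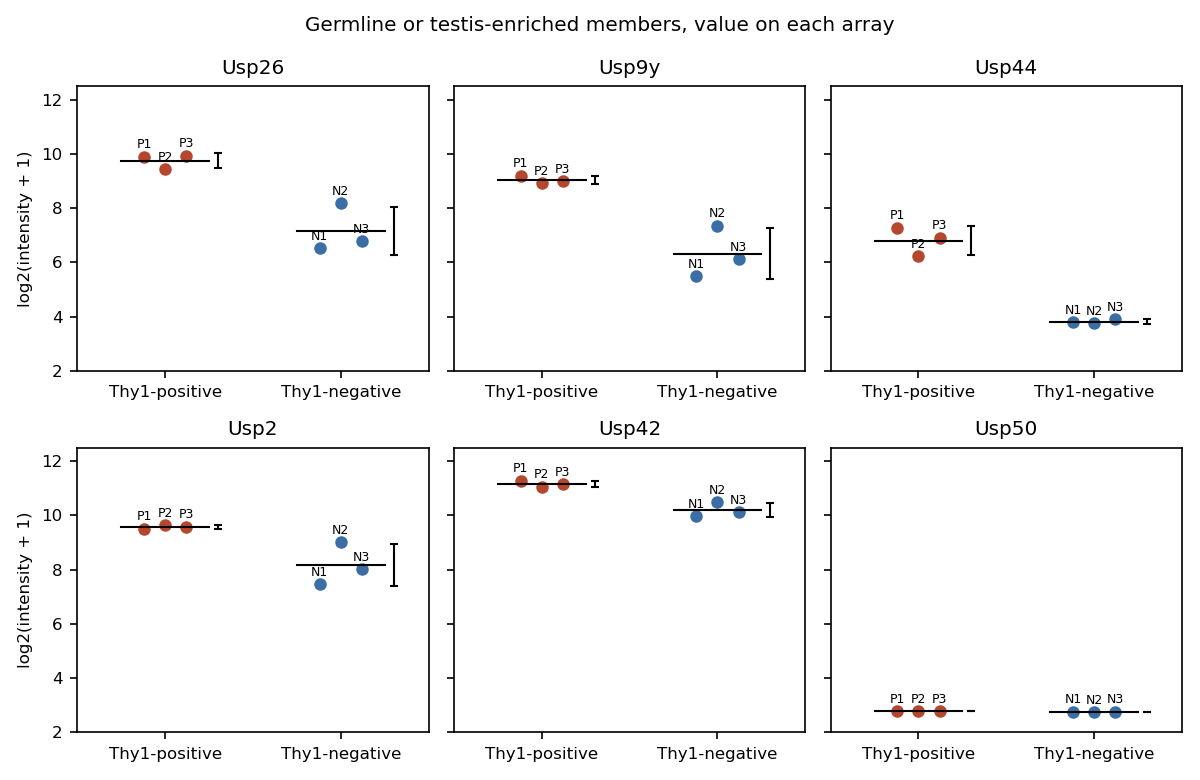
Value of the 6 germline or testis-enriched members on each array, as log2(intensity + 1), with Thy1-positive arrays on the left and Thy1-negative arrays on the right of each panel, the mean as a line and the SD as a bar. Usp26, Usp9y, Usp2 and Usp42 have N2 as the highest Thy1-negative array, Usp44 does not, and Usp50 stays near 2.77 on every array.

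Usp42, a deubiquitinase that can act on p53, measured 11.27, 11.06 and 11.16 on P1, P2 and P3 against 9.97, 10.49 and 10.11 on N1, N2 and N3. It was 1.96-fold higher in Thy1-positive cells (difference 0.97, SE 0.16, adjusted p = 0.0130), and the call was lost without P1 (0.92), P3 (0.97) or N3 (0.93). Usp2, whose transcripts are abundant in testis and in tissues with circadian rhythm, measured 9.51, 9.65 and 9.58 on P1, P2 and P3 against 7.46, 9.002 and 8.02 on N1, N2 and N3. Its arrays did not overlap either, yet its difference of 1.42 (SE 0.42, adjusted p = 0.0613) did not pass. Without N2 it passed, at 1.84, and its second probe set differed by 1.40 and was called over all probe sets (adjusted p = 0.0348 by limma). Usp50 stayed at 2.77 in Thy1-positive cells against 2.76 in Thy1-negative cells, below the median signal on all arrays.

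To show the sequence context of the members with the highest and the lowest differences, the RefSeq promoters of Usp26, Usp9y, Usp46 and Usp25 are given, from 250 bases before to 50 bases after the start, in the GRCm38.p6 assembly. They lie at chrX:51801184-51801483 (minus strand), chrY:1459733-1460032 (minus strand), chr5:74068362-74068661 (minus strand) and chr16:77013819-77014118 (plus strand). The table held promoters for 38 of the 50 symbols and none for Usp44. Capitals mark CG dinucleotides, the sites that DNA methylation uses.
Usp26: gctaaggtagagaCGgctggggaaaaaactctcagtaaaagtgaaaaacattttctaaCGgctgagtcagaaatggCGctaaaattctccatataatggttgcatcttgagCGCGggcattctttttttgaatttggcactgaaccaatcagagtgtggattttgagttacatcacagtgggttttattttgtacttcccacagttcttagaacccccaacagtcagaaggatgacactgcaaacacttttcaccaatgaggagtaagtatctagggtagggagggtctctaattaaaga
Usp9y: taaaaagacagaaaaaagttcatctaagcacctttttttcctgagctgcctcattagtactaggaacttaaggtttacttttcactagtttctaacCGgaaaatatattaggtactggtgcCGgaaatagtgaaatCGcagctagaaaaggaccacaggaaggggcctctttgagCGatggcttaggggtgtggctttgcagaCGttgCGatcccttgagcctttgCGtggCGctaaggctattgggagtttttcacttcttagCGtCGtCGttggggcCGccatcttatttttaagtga
Usp46: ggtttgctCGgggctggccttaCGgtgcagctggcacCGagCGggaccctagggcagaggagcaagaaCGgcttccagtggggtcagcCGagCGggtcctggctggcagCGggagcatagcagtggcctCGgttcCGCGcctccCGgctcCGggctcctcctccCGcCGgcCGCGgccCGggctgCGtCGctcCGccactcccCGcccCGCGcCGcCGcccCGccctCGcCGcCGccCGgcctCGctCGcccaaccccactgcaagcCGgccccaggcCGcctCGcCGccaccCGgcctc
Usp25: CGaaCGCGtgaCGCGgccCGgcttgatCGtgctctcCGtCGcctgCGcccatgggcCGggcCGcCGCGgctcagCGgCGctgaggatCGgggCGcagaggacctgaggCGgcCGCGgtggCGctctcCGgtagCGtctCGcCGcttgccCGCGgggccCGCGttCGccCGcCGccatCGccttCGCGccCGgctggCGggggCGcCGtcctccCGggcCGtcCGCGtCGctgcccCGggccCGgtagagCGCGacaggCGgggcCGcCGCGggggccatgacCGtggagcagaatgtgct

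The promoter of Usp26 held 5 CG dinucleotides and that of Usp9y 12, while those of Usp46 and Usp25 held 38 and 54. The median was 27 over the 39 promoters of the family and 7 over all 32851 promoters of the same length in the table. Over all matched symbols, these 4 included, the ranges of CG counts by direction overlapped. Promoters of symbols called higher had a median of 34.5, those of symbols called lower 26, and those of symbols not called 25. The promoter of Usp2, also testis-enriched, held 33. The letters GGGCGG, a box bound by Sp1-type factors, were found on either strand in 26 of the 39 promoters (66.7%) and in 35.7% of all promoters. They were in the promoter of Usp46 but not in those of Usp26, Usp9y and Usp25. A match is a description of letters and says nothing of binding.

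Deubiquitinases of histones changed in both directions. Of 9 measured, with Usp44 counted above among the germline members and not here, 4 were higher and 3 lower, with a median of 0.09. Of all genes above the median signal, 27.7% were called higher and 22.4% lower. Usp3, which removes ubiquitin from histones H2A and H2B, measured 11.72, 11.43 and 11.65 on P1, P2 and P3 against 9.95, 10.40 and 9.90 on N1, N2 and N3. It was 2.85-fold higher in Thy1-positive cells (difference 1.51, SE 0.17, adjusted p = 0.00588), and called whichever array was left out. A further 2 of its probe sets were called higher, at 1.37 and 0.38, while another above the median signal differed by -0.18 and was not called. Usp16, a histone H2A deubiquitinase, was higher by 0.61 and called in 4 of the 6 fits that left out 1 array. Usp7, which acts on p53 and its ligase Mdm2, was higher by 0.54 (SE 0.14, adjusted p = 0.0399), with means of 12.12 ± 0.09 in Thy1-positive cells against 11.57 ± 0.24 in Thy1-negative cells. This call was lost without P1 (0.59), P2 (0.49), P3 (0.55), N1 (0.49) or N3 (0.46). Usp22, the deubiquitinase of the SAGA coactivator complex, differed by 0.09 (SE 0.07, adjusted p = 0.379), with overlapping arrays. Usp27x, its close relative on the X chromosome, was lower by -0.72 (SE 0.07, adjusted p = 0.00468). Usp49, a histone H2B deubiquitinase, averaged 5.06 ± 0.08 in Thy1-positive cells against 5.83 ± 0.36 in Thy1-negative cells and was lower by -0.78 (SE 0.20, adjusted p = 0.0421). It kept its call only without N2 (-0.98) among the fits that left out 1 array, with differences of -0.80 without P1, -0.80 without P2, -0.73 without P3, -0.66 without N1 and -0.68 without N3.

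Usp46, which works with the WD-repeat cofactors Wdr48 and Wdr20 and is known for its action on glutamate receptors, fell the most. It measured 6.42, 7.84 and 7.01 on P1, P2 and P3 against 10.25, 9.83 and 10.02 on N1, N2 and N3. The groups lay far apart, with P2 the highest of the Thy1-positive arrays. Usp46 was 7.70-fold lower in Thy1-positive cells (difference -2.94, SE 0.40, adjusted p = 0.00875), its second probe set differed by -2.49 (adjusted p = 0.0112 over all probe sets by limma), and it was called whichever array was left out. The Sertoli cell markers had means of 6.25, 7.82 and 6.40 on P1, P2 and P3 against 10.98, 10.39 and 10.85 on N1, N2 and N3, with P2 again the highest Thy1-positive array. The part of the Sertoli and peritubular myoid cell content of the fractions in the differences of Usp46 and of the other lower members was not tested. The non-coding Usp46os2 was below the median signal in both fractions, at 2.83 in Thy1-positive cells against 2.84 in Thy1-negative cells.

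Usp25, a deubiquitinase of cytokine and Wnt signalling, measured 6.54, 7.09 and 6.89 on P1, P2 and P3 against 8.82, 7.94 and 9.002 on N1, N2 and N3. It was 3.35-fold lower in Thy1-positive cells (difference -1.75, SE 0.34, adjusted p = 0.0210). N2 was the lowest Thy1-negative array, and the call was lost without P1 (-1.59), P3 (-1.77), N1 (-1.63) or N3 (-1.54). Usp10, which binds the stress granule protein G3bp1 and can act on p53, measured 8.31, 8.50 and 8.31 on P1, P2 and P3 against 9.71, 9.24 and 9.54 on N1, N2 and N3. It was 2.18-fold lower (-1.12, SE 0.14, adjusted p = 0.00747). Usp33, which acts on the guidance receptor Robo1 and on beta-arrestin, was 2.09-fold lower (-1.06, SE 0.09, adjusted p = 0.00390), with 9.52, 9.42 and 9.34 on P1, P2 and P3 against 10.56, 10.31 and 10.58 on N1, N2 and N3. For Usp10 and Usp33, as for Usp46 and Usp25, N2 lay closest to the Thy1-positive arrays, and the calls of Usp10 and Usp33 held whichever array was left out.

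**Figure D3:**
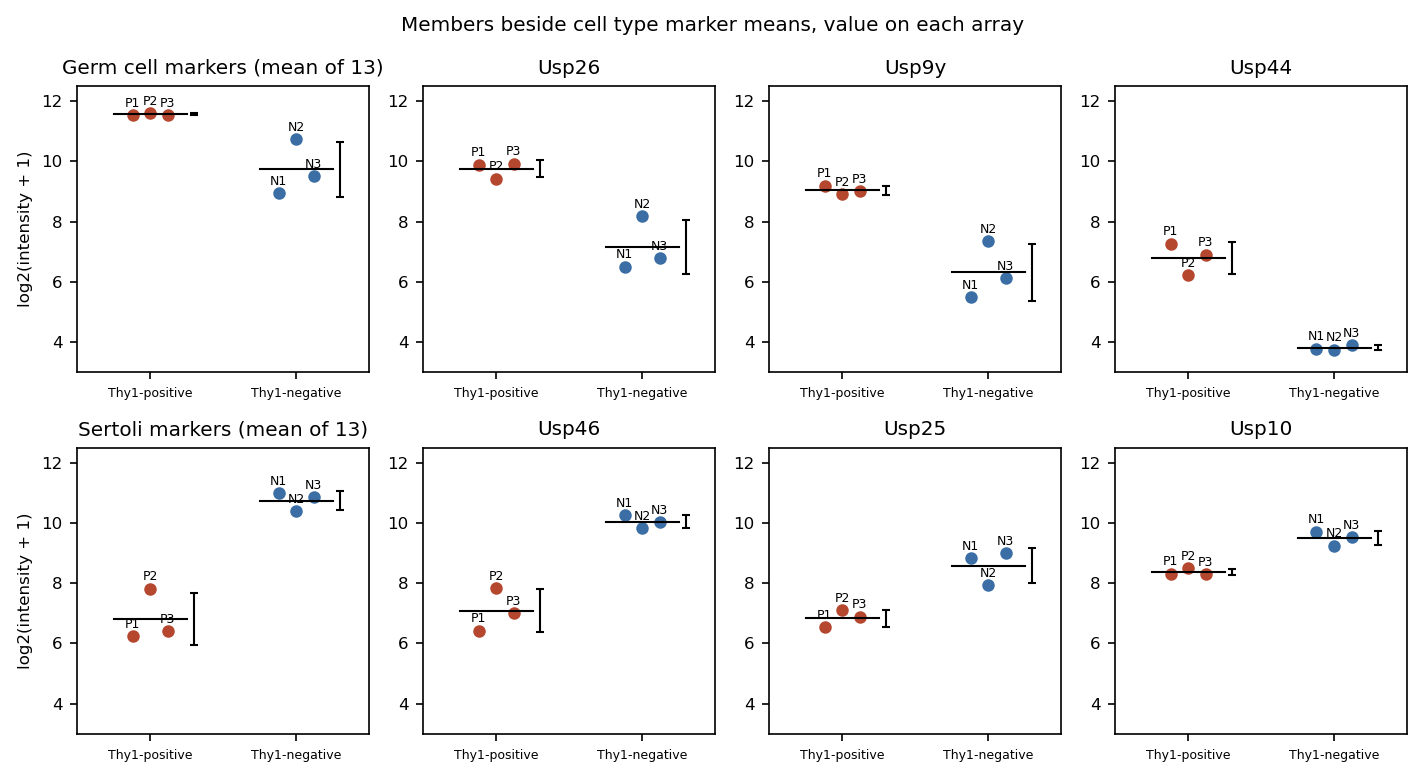
Value on each array, as log2(intensity + 1), of the mean of 13 germ cell markers beside Usp26, Usp9y and Usp44 (upper row) and of the mean of 13 Sertoli cell markers beside Usp46, Usp25 and Usp10 (lower row), with Thy1-positive arrays on the left, means as lines and SD as bars. N2 lies closest to the Thy1-positive arrays in every panel but that of Usp44, and P2 is the Thy1-positive array with the highest Sertoli marker mean and the highest Usp46.

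Among the other members that act on receptors, endosomes or adhesion, 3 of the group of 8 were higher and 2, Usp10 and Usp33, lower. The shares over all genes above the median signal were 27.7% higher and 22.4% lower. Usp15 and Usp4, close relatives that both act in TGF-beta signalling, were higher by 1.14 (SE 0.15, adjusted p = 0.00881) and 1.12 (SE 0.09, adjusted p = 0.00273). Usp4 measured 10.74, 11.03 and 10.80 on P1, P2 and P3 against 9.78, 9.73 and 9.69 on N1, N2 and N3. Both were called whichever array was left out. The other probe sets of Usp15 were dim, with differences of -0.74 to 0.00, and the second of Usp4 differed by -0.57. Usp11, the X-linked relative of both, differed by -0.03 (SE 0.19, adjusted p = 0.947). Usp8, which acts at endosomes on growth factor receptors, differed by 0.37 (SE 0.10, adjusted p = 0.0528) and did not pass, although its arrays did not overlap. Its endosomal partner Stam2 was higher (0.63, SE 0.09) and the related Stam lower (-0.41, SE 0.06).

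Usp9x, an X-linked protease known for cell polarity and adhesion, gave opposite results with different probe sets. The brightest measured 11.14, 11.03 and 10.98 on P1, P2 and P3 against 10.29, 10.25 and 10.26 on N1, N2 and N3. By this probe set Usp9x was 1.72-fold higher in Thy1-positive cells (difference 0.79, SE 0.05, adjusted p = 0.00151). Of its 6 other probe sets, 1 was also called higher (0.87) and 4 were called lower, by -2.19, -2.21, -2.48 and -3.01. The lowest measured 6.45, 7.02 and 6.32 on P1, P2 and P3 against 9.84, 9.18 and 9.79 on N1, N2 and N3. With the mean of all probe sets the difference was -1.25 and called (adjusted p = 0.00795 by limma). The direction for Usp9x is therefore not settled by these arrays. Whether probes of Usp9x also bind RNA of its near relative Usp9y was not tested.

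Probe sets disagreed for other members too. Of the 50 symbols, 37 had several probe sets, and 13 of 28 with several above the median signal had differences of both signs among those. Calls in opposite directions over all probe sets occurred for Usp9x, Usp14 and Usp48. Usp14, which sits on the proteasome, was higher by 0.61 with its brightest probe set and lower by -1.41 with its dimmest, which averaged 6.22 in Thy1-positive cells against 7.63 in Thy1-negative cells. Usp48, a nuclear protease, differed by 0.25 with the probe set kept and by -0.54 and 0.26 with the others. Usp47, known for base excision repair, was not called with its brightest probe set (0.26), while its others were lower by -0.69 and -1.30. Usp31 was not called at -0.57, and 1 of its other probe sets was higher by 1.25.

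**Figure D4:**
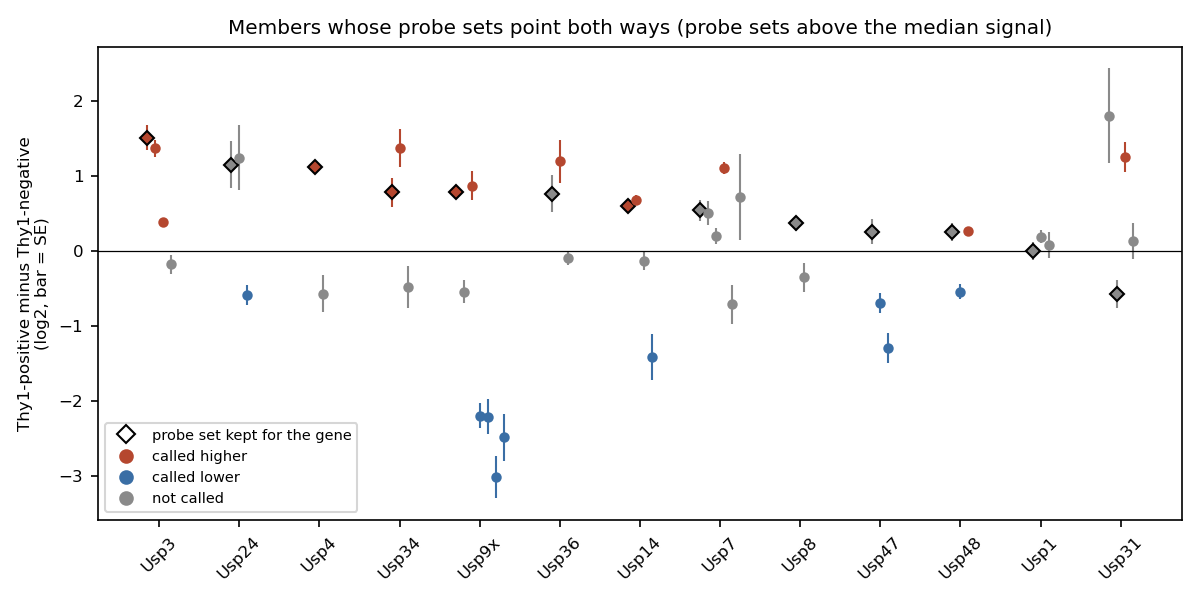
Thy1-positive minus Thy1-negative difference on the log2 scale, with SE bars, of each probe set above the median signal for the 13 members whose probe sets point both ways; diamonds are the probe sets kept, and colours show calls adjusted over all probe sets (red higher, blue lower, grey none). Usp9x spans -3.01 to 0.87, the widest spread shown, and the probe sets kept for Usp24 and Usp7, called over genes, are not called over all probe sets.

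Of 3 members tied to the proteasome and free ubiquitin, Usp5 and Usp14 were higher and Usp13 was not called. Beside this group and that of DNA repair and the cell cycle stand the shares of all genes above the median signal, 27.7% higher and 22.4% lower. Usp5, which takes apart free ubiquitin chains, measured 9.58, 9.77 and 9.60 on P1, P2 and P3 against 8.73, 8.90 and 8.66 on N1, N2 and N3, and was 1.85-fold higher (0.89, SE 0.09, adjusted p = 0.00487) in Thy1-positive cells without overlap. Usp13, its relative, was dim at 3.17 in both fractions. Of 5 members of DNA repair and the cell cycle, 1 was higher and 2 lower. Usp28, which stabilises Myc, was the higher one (0.69, SE 0.11, adjusted p = 0.0133), called in 3 of the 6 fits without 1 array. Usp45, which acts on the repair nuclease subunit Ercc1, was lower by -0.54 (SE 0.06, adjusted p = 0.00551). Usp37, a regulator of cyclin A, was lower by -0.58 (SE 0.16) with an adjusted p of 0.0499, at the threshold. Its call was lost without P1 (-0.53), P3 (-0.48), N1 (-0.51), N2 (-0.63) or N3 (-0.59). The second probe set of Usp37 differed by -0.09 and was not called. Usp1, the deubiquitinase of the Fanconi anaemia pathway, did not differ detectably: it averaged 11.75 ± 0.21 in Thy1-positive cells against 11.75 ± 0.10 in Thy1-negative cells. Usp30, which counters the removal of damaged mitochondria, was lower by -0.45 (SE 0.09, adjusted p = 0.0227), and lost the call without P1 (-0.49), P3 (-0.48), N1 (-0.42) or N3 (-0.41). Its second probe set, also above the median signal, differed by -0.02 and was not called. Usp19 of the endoplasmic reticulum (0.47) and Usp36 of the nucleolus (0.77) did not pass, although another probe set of Usp36 was called higher (1.19, adjusted p = 0.0445 over all probe sets by limma).

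Large or less studied members also moved both ways. Usp24 was higher by 1.15 (SE 0.31, adjusted p = 0.0465), although another of its probe sets was lower by -0.58, and the call failed without P1 (1.11), P2 (1.17), P3 (1.18), N1 (0.93) or N3 (1.06). Usp34, which acts on axin in Wnt signalling, was higher by 0.79 (SE 0.19, adjusted p = 0.0378), and lost the call without P1 (0.76), P2 (0.77), P3 (0.83), N1 (0.69) or N3 (0.68). Its other probe sets differed by 1.37, called over all probe sets, and by -0.48, not called. Usp43 was higher by 0.91 (SE 0.22, adjusted p = 0.0347) but was called in 0 of the 6 fits that left out 1 array, where it differed by 0.70 to 1.03; all 3 Thy1-positive arrays were above all 3 Thy1-negative ones. Usp32 was lower by -0.86 (SE 0.10, adjusted p = 0.00708), and was called whichever array was left out. Among relatives grouped for lacking or unusual catalytic residues, Usp54 was higher (0.84, SE 0.12, adjusted p = 0.0102). In the same group Usp53, a protein of tight junctions, was lower (-0.59, SE 0.08, adjusted p = 0.00957), and the splicing factor Usp39 was not called (0.40). Usp6nl, matched by symbol alone, was lower by -0.67 (SE 0.16, adjusted p = 0.0352), and not called without P1 (-0.77), P3 (-0.73), N1 (-0.64) or N3 (-0.62).

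Of 3 members tied to immune signalling, 0 were higher by limma (0 of them with an unadjusted p below 0.05 in that direction) and 1, Usp25, was lower, in fractions where all 12 macrophage markers were higher in Thy1-positive cells. Usp18, which removes the ubiquitin-like ISG15 and is induced by interferon, measured 2.88, 2.94 and 2.90 on P1, P2 and P3 against 2.73, 2.91 and 2.94 on N1, N2 and N3. These values overlap and lie below the median signal (0.05, SE 0.06, adjusted p = 0.664). Of 14 interferon response genes, 3 were higher and 0 lower by limma, with a median of 0.01, and the 3 were Oas1a (2.28, SE 0.22), Stat2 (1.57, SE 0.35) and Oasl2 (1.26, SE 0.24). The share higher was 21.4%, near the 18.5% of all genes, of which 14.4% were lower. Usp17la, a cytokine-induced protease, was at low signal in both fractions, at 2.39 in each.

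The other deubiquitinase families and the cofactors of the ubiquitin-specific proteases were read from lists beside the members. For comparison, 18.5% of all genes were called higher and 14.4% lower, and 27.7% and 22.4% of those above the median signal. The share called higher was 20.0% of the OTU genes and 16.7% of the cofactors, near that of all genes. Of 11 genes listed with the JAMM metalloproteases, not all of them proteases themselves, 6 were higher and 2 lower, with a median of 0.51. Psmd7 (1.17, SE 0.15), Brcc3 (0.73, SE 0.11) and Cops6 (0.69, SE 0.17) rose the most; they belong to the proteasome, to a complex that cuts ubiquitin at DNA breaks and to the COP9 signalosome. Stambpl1, an endosomal deubiquitinase, was lower by -4.01 (SE 0.36, adjusted p = 0.00392), with 3.54 ± 0.39 in Thy1-positive cells against 7.55 ± 0.54 in Thy1-negative cells, and its relative Stambp was lower by -0.98 (SE 0.15). Among the fits that left out 1 array, the JAMM counts were 4 to 6 higher and 1 to 2 lower. Of 15 OTU genes, 3 were higher and 0 lower by limma, namely Otud5 (1.02, SE 0.17), Otulin (0.66, SE 0.10) and Otud7b (0.38, SE 0.04). Of 4 UCH genes, Uchl1, which is abundant in spermatogonia, was higher (1.74, SE 0.37, adjusted p = 0.0262). Of 5 other deubiquitinases, Mindy3 was higher (0.32, SE 0.05) and Zup1 (-1.12, SE 0.16) and Mindy1 (-0.70, SE 0.16) lower, and both Josephin genes measured were not called. Of 12 cofactors, Gmps, which activates Usp7, was higher (0.83, SE 0.17), as was Stam2, while Stam was lower. Wdr48, the shared cofactor of Usp1, Usp12 and Usp46, differed by 0.20 (SE 0.09, adjusted p = 0.172).

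**Figure D5:**
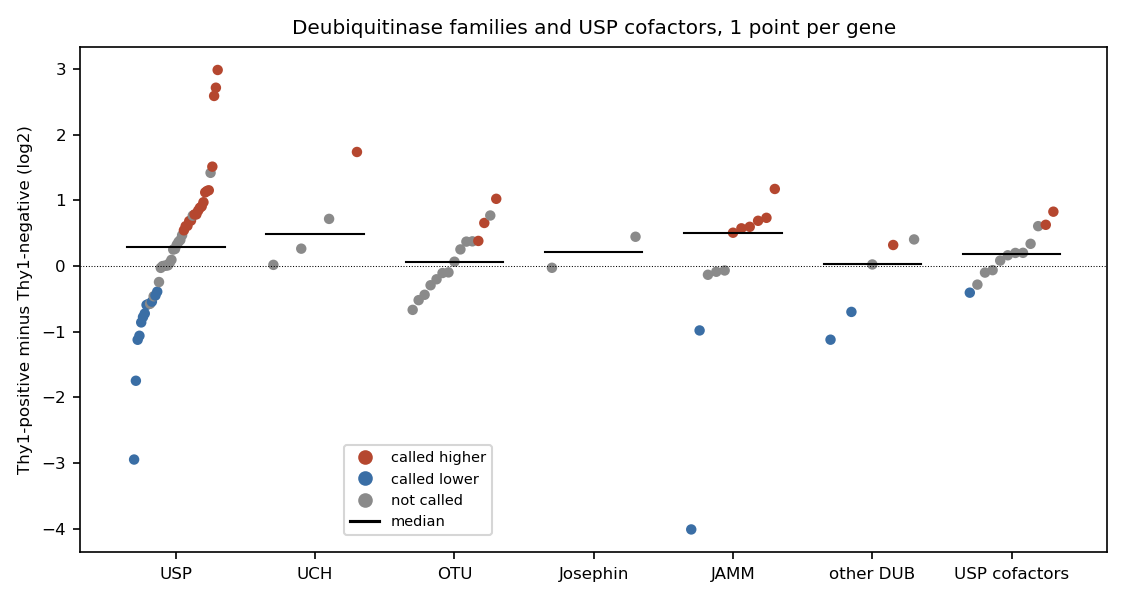
Thy1-positive minus Thy1-negative difference on the log2 scale of each gene listed with the deubiquitinase families and of the cofactors. Called genes are in red (higher) or blue (lower), the others in grey, and the median is a line. The ubiquitin-specific proteases run from -2.94 to 2.98 with a median of 0.29, and the JAMM gene Stambpl1 lies lowest at -4.01.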

How the data were processed

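RNA of 3 Thy1-positive and 3 Thy1-negative testis fractions was measured on Affymetrix arrays, 1 per sample. The deposited table holds linear intensity values, 1 for each probe set on each array, already normalized by the authors; per the submitters' processing notes the tool was GCRMA, whereas the labels describe Affymetrix software with scaling to a fixed target, and the sources used here do not settle which of them gave these values. Of 45101 probe sets, 64 controls were left out. The platform table gave 1 gene for 34945, several for 932 (left out here) and none for 9160. All tests used log2(intensity + 1) without a filter. The brightest probe set stood for each of 18193 genes.

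Fractions were compared with limma 3.58.1 (R 4.3.3), 2-sided, with fraction as the single term and Benjamini-Hochberg adjustment at 0.05. Low signal means below the 25th percentile of the arrays. On simulated arrays of these 18193 genes, 200 genes with a mean above the median of the genes were given known changes. The test recovered 30.3%, 67.2% and 80.6% of log2 changes of 1, 2 and 3. In the data 5996 genes were called, many more than were changed there, so these shares need not hold for the real comparison. The small number of arrays limits precision.

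Named members were Usp26, Usp9y, Usp44, Usp6nl, Usp9x, Usp7, Usp18 and Usp2, and the 12 called symbols with the largest change in each direction; from each list up to 3 called genes per direction. Other members are given in short clauses. Members and lists were chosen with earlier results of these data known. One further gene that the symbol pattern matches is not reported here. Arrays were not paired by replicate number, since the labels do not state that arrays of one number share a preparation. Deviations of same-numbered arrays correlated at -0.16, -0.17 and -0.04 over genes, and those of differently numbered arrays at -0.11 to 0.19. Such correlations cannot decide whether arrays were paired. Alternatives covered normalization, centring, filters, pseudocount, variance model, array weights, probe set choice and leaving out arrays.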

Additional observations from a re-analysis of the deposited data

How the results depend on the processing

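With the 50 symbols, 18 were higher and 13 lower, with a median difference of 0.26. Leaving out 1 array gave 8 to 23 higher, 7 to 13 lower and a median of 0.16 to 0.40. With the arrays' replicate number fitted as a block, 7 were higher and 6 lower; the numbers are not stated to pair arrays, and the cause was not tested. Array weights gave 29 higher and a median of 0.37, and quantile normalization 8 lower. For none of these settings are the calls over all genes given beside the counts. The median was 0.38 with arrays centred on their median, 0.37 with probe sets above the median only and 0.0083 when a gene's probe sets were averaged. With that average Usp9x turned to -1.25 and Usp15 to -0.10. All 7 probe sets of Usp9x lay above the median signal, and 1 of the 6 of Usp15 did. Without both arrays numbered 3, chosen after seeing the data, 0 were higher and 0 lower by limma, and 4 arrays remained. In that fit 210 of all 18193 genes were called, and 21 of the 50 symbols had an unadjusted p below 0.05 by limma. Of the 31 called symbols, 15 were called in all 6 fits without 1 array. Usp49 kept its call in 1 of those fits and Usp43 in 0.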

Other observations

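Some close relatives within the family differed in direction or in whether they were called, in pairs picked after their values were seen. Others moved together, such as Usp15 and Usp4, higher by 1.14 and 1.12. Usp12, which shares the cofactor Wdr48 with Usp46, was higher in Thy1-positive cells by 0.68 (SE 0.12, called in 2 of the 6 fits without 1 array) and by 1.41 and 1.44 with its other probe sets, whereas Usp46 was lower by -2.94. Usp28 was higher by 0.69 and its relative Usp25 lower by -1.75. Usp33 was lower by -1.06, while its relative Usp20 was not called and differed by 0.32 (SE 0.30) with overlapping arrays. Usp26 was higher by 2.59, while its relative Usp37 was lower by -0.58, a call kept in 1 of the 6 fits without 1 array. The difference within each pair was not tested.

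Usp38, the called member with the smallest change, was lower by -0.39 (SE 0.09, adjusted p = 0.0352) and called in 2 of the 6 fits without 1 array, and Usp21, a histone H2A deubiquitinase (-0.46), and Usp40 (-0.24) were not called. Uba1y, the Y-linked ubiquitin-activating enzyme, differed by 0.89 (SE 0.40, adjusted p = 0.168), with means of 12.62 ± 0.04 in Thy1-positive cells against 11.73 ± 0.75 in Thy1-negative cells.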
